A study of Mus musculus with 6 samples.

Results

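The genes described here make up the folding, import and disposal machinery of the endoplasmic reticulum (ER), followed in A20 cells, a B lymphoma line from a BALB/c mouse. They were chosen by name, as the probe sets annotated to 46 listed gene symbols. Of these 46 genes, 45 were measured, through 120 probe sets, out of 18194 genes measured on the arrays. Sec61g, a small subunit of the Sec61 channel, was matched only by a probe set shared with other genes and has no value. Ero1l and Ero1lb of the list are called Ero1a and Ero1b here. By role, 18 measured genes act in folding, 17 in translocation and 7 in degradation, and 3 are sensors or transcription factors of ER stress.

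The 6 conditions were each measured on 1 Affymetrix mouse genome array. Without inhibitor there were cells with no cytokine, called untreated, and cells given TGF-β for 12 h or 24 h, all 3 with DMSO. With inhibitor there were cells kept in SP600125 alone for 24 h and cells given TGF-β together with SP600125 for 12 h or 24 h. SP600125 is an ATP-competitive inhibitor of JNK kinases, and its doses and those of TGF-β are not given in the labels. All cells grew in serum-containing medium with β-mercaptoethanol, a reducing agent. A20 is 1 tumour line, and nothing in the labels says that the arrays came from separate cultures.

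Secretory and membrane proteins enter the ER through the Sec61 channel, lose their signal peptide to signal peptidase and receive N-linked sugars from the oligosaccharyltransferase. Inside, Hspa5 (BiP) and its cochaperones, the sugar-binding chaperones calnexin and calreticulin and the protein disulfide isomerases fold them, while proteins that fail are passed through the Sel1l and Syvn1 (Hrd1) complex and the derlins to the proteasome. Ern1 (IRE1), Atf6 and PERK sense a load of unfolded protein and raise many of these genes through Xbp1, Atf6 and Atf4, and in the B lineage this programme is best known for preparing plasma cells to secrete antibody.

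Values are signals, the linear intensity deposited for each probe set, and a gene is represented by its brightest probe set. All 45 measured genes were above the floor of 74.2, the median of all signals in the table, on 6 of 6 arrays. Effects are log2 differences with their standard error from limma, fitted to 11731 genes, and a gene is said to rise or fall only where limma's adjusted p (Benjamini-Hochberg) is below 0.05. The SP600125 effect is the mean over 3 pairs of arrays, 1 for each TGF-β state (0, 12 and 24 h), and each TGF-β effect is the mean over 2 pairs, without and with drug. With 1 array a condition, the error is the departure of single arrays from additive effects, so the p-values reflect no spread other than that among these 6 arrays.

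One array stood apart. The 18S ribosomal RNA control probe set read 5878 on the 24 h array with both agents and between 506.5 and 881.5 on the other 5 arrays. The actin control's 3′ to 5′ ratio, a sign of RNA quality, was 1.89 on that array and 1.51 with SP600125 alone, against 1.25 to 1.32 on the other 4. All 7 measured B cell markers were above the floor on all arrays, as were 3 of 4 plasma cell, 2 of 5 myeloid (Csf1r and Adgre1), 0 of 5 T cell and 0 of 5 fibroblast markers. The myeloid markers summed to 616.3 to 955.3. The summed signal of the B cell markers was 35351 to 37246 with SP600125 and 50545 to 60453 without it. That of the plasma cell markers was 17564 to 23170 with the drug and 24400 to 28364 without it. Jchain made up most of this sum, with a mean signal of 22187 over all arrays against 111.4 to 362.0 for the other plasma cell markers. In such bulk samples fewer cells of a type and less RNA per cell cannot be told apart.

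Because many of these genes are known targets of ER stress signalling, their promoters were also read, after the fits. The window ran from 250 bases before to 50 bases after the transcription start in the RefSeq table of GRCm38.p6. The window was listed for 35 of the 45 genes, and was missing for Hspa13, Hyou1, Manf, Sec61a1, Ssr2, Spcs3, Sec11c, Ostc, Derl1 and Atf6. The ER stress element (ERSE), searched on both strands as CCAAT and CCACG with any 9 bases between them, is known to bind NF-Y at its CCAAT end and Atf6 or Xbp1 at its CCACG end. It was found in 39 of the 32851 promoters in the table, or 0.119%, and in 10 of the 35 members, or 28.6%. The matches are shown because they mark the genes of the list with a textbook stress element. Each is written 5′ to 3′ in the direction of the motif, with the fixed letters in capitals.
Hspa5: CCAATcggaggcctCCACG
Hsp90b1 (upstream match): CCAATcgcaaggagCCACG
Hsp90b1 (downstream match): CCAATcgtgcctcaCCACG
Dnajc3: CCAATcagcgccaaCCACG
Creld2: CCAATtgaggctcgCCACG
Canx: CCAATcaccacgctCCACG
Calr: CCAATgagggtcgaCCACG
Pdia6: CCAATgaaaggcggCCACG
Ero1b: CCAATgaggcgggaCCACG
Syvn1: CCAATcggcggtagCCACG
Derl3: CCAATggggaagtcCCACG
The matches lay between positions -212 and -26 from the start, and Hsp90b1 held 2 of them, on opposite strands. Folding genes supplied 8 of the 10 genes with a match and degradation genes the other 2, Syvn1 and Derl3. Of the 12 translocation genes with a listed promoter 0 had a match in this window.

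A shorter element, ERSE-II, searched as ATTGG and CCACG with any 1 base between them, was present in 0.0365% of promoters and in 2 members, Dnajb11 and Herpud1. The UPRE core TGACGTGG was found in 0.676% of promoters and in 0 members. The ATF4 element TGATGNAA was found in 3.97% of promoters and in 1 member, Herpud1, which thus carried both an ERSE-II and an ATF4 element. These matches are shown with the fixed letters in capitals.
Dnajb11 (ERSE-II): ATTGGcCCACG
Herpud1 (ERSE-II): ATTGGgCCACG
Herpud1 (ATF4 element): TGATGcAA
A match is a stretch of letters and was not tested for binding.

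The 250 bases before the start are printed for the 4 genes with an ERSE that fell most with SP600125, with the element in capitals. They show the same element at different distances and on either strand in genes of different roles.
Creld2, GRCm38.p6 chr15:88819396-88819645, plus strand: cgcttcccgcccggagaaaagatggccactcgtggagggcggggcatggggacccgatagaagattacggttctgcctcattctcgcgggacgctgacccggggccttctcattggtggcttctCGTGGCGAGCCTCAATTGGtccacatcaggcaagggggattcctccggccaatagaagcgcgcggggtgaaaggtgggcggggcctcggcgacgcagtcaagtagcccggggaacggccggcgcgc
Derl3, GRCm38.p6 chr10:75893148-75893397, plus strand: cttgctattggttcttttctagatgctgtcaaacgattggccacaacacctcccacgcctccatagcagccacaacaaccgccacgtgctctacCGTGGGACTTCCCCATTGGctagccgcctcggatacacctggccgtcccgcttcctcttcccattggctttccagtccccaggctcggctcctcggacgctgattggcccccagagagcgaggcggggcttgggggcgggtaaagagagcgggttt
Pdia6, GRCm38.p6 chr12:17266339-17266588, plus strand: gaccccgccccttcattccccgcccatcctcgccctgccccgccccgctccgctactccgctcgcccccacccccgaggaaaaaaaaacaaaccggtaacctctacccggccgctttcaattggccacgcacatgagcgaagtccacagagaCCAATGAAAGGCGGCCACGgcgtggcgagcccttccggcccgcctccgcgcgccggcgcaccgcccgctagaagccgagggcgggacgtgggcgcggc
Hsp90b1, GRCm38.p6 chr10:86705445-86705694, minus strand: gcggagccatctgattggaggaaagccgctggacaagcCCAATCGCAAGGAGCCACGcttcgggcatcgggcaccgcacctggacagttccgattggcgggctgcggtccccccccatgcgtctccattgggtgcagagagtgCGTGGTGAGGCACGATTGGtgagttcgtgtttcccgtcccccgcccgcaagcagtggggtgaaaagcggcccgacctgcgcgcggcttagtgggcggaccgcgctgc
The corresponding stretch of Herpud1, which rose with the drug and was chosen for printing after its values were seen, has the ATF4 element and then the ERSE-II in capitals.
Herpud1, GRCm38.p6 chr8:94386179-94386428, plus strand: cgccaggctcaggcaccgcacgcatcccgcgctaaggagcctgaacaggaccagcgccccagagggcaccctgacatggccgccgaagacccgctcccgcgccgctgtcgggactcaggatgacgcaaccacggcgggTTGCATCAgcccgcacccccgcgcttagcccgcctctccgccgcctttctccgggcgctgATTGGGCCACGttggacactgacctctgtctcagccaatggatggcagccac

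**Figure D1:**
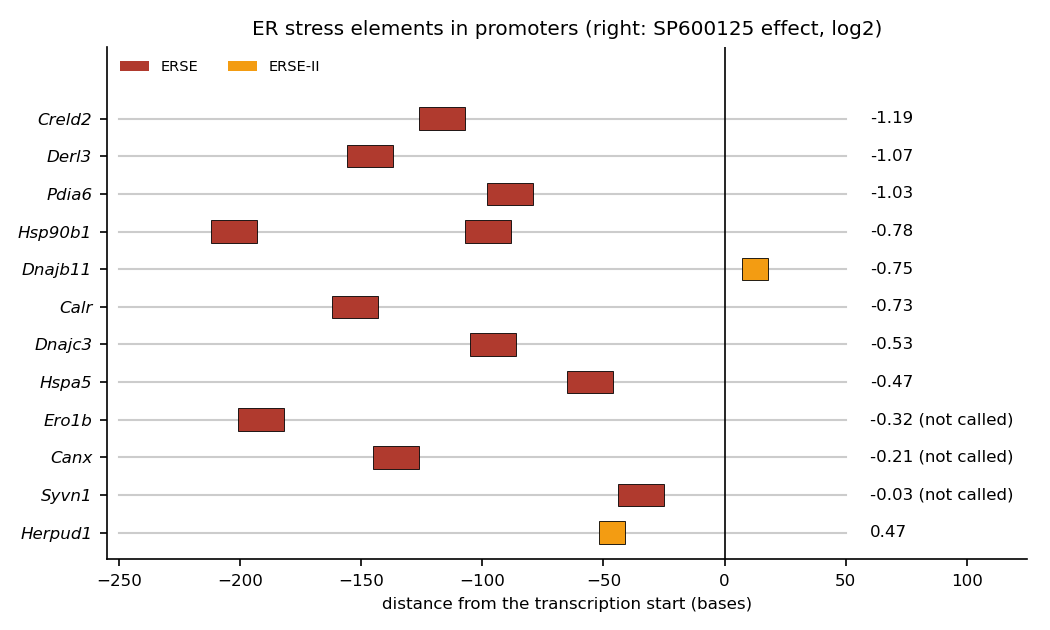
Position of ERSE and ERSE-II matches in the promoters of 12 ER genes, on an axis of bases from the transcription start, with the SP600125 effect of each gene (log2) at the right. The 10 genes with an ERSE have effects between -1.19 and -0.03, and Herpud1, with an ERSE-II, has 0.47.

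Most calls among the ER genes came with SP600125. With the drug 20 of the 45 fell and 4 rose, against 3.69% and 3.99% of all genes tested, and 21 were not called. Their median effect was -0.32, with 36 negative and 9 positive, while the median over all genes was 0.04. The 3 arrays with SP600125 were all below the 3 without it for 23 of the genes, against 5.92% of all genes, and all above for 3, against 10.1%. Counted by pairs, 31 genes were lower with drug in 3 of 3 (18.4% of all genes) and 6 were higher in 3 of 3 (24.5%). Roles differed: 12 of 18 folding genes fell and 0 rose (median -0.63), 5 of 17 translocation genes fell and 0 rose (median -0.29), and of 7 degradation genes 2 fell and 3 rose (median -0.03). The difference between roles was described and not tested.

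These counts were made on few arrays, and each pair of arrays mattered to them. Leaving out either array of a TGF-β state removed that pair from the SP600125 effect. The influence of a single array could thus not be separated from that of its partner. Fits without 1 array also have 1 residual degree of freedom in place of 2. In these fits the SP600125 effects of the called members kept their sign, with -1.68 to -1.22 for Sdf2l1 and -0.62 to -0.35 for Hspa5. Without the 24 h array with both agents, or without its partner without drug, limma called 0 members, with 4 higher and 27 lower at an unadjusted p under 0.05, a threshold that 16.1% of all genes passed in either direction. The medians without either were -0.72 for folding, -0.34 for translocation and -0.09 for degradation. Without the untreated array or that with SP600125 alone, Manf, Pdia3, Pdia6 and Sdf2l1 fell and 0 members rose, and without either 12 h array 0 were called. With all arrays and probe sets averaged per gene, 9 members fell and 0 rose, and with no filter on dim genes 0 were called, 5 being higher and 23 lower at an unadjusted p under 0.05, against 12.6% of all genes. The part of the 18S signal, the actin ratio and the B cell marker signal in these effects was not tested. Within the 12 h pair the actin ratios were 1.29 without and 1.32 with drug, the B cell marker sums 52791 and 37073, and the folding median -0.69.

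**Figure D2:**
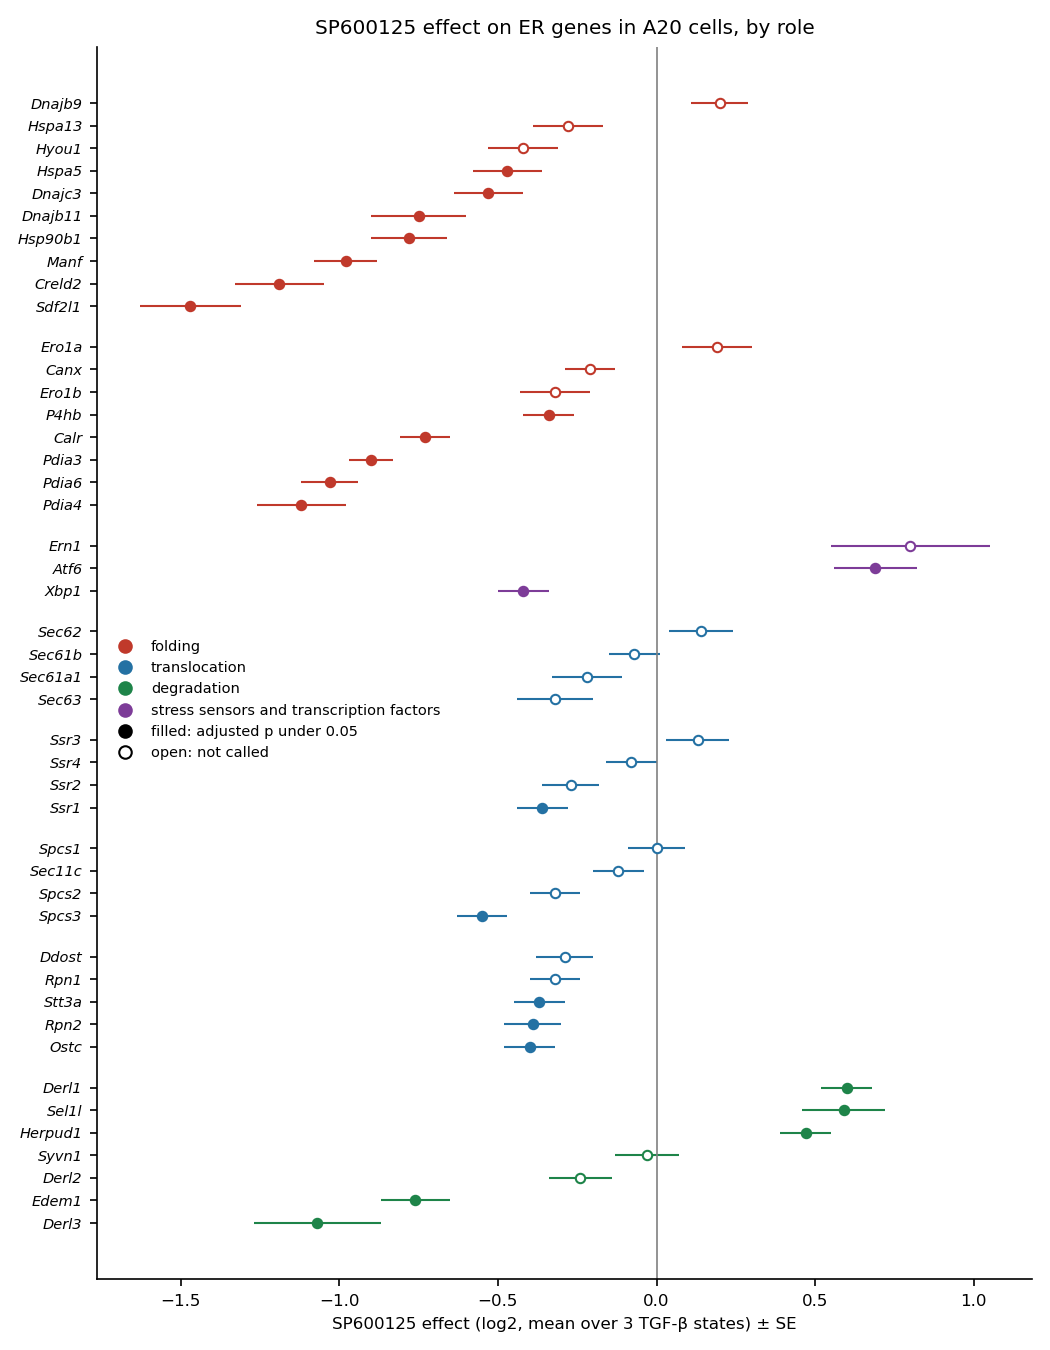
SP600125 effect on the 45 measured ER genes, as log2 difference ± standard error from limma, averaged over 3 TGF-β states and grouped by role, with filled points for adjusted p under 0.05. Filled folding genes all lie left of 0, between -1.47 and -0.34, and degradation genes lie on both sides, from -1.07 to 0.60.

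Among the chaperones and cofactors, 7 of 10 fell with SP600125 and 0 rose. The largest effect was on Sdf2l1, a partner of ER Hsp40 proteins that keeps client proteins from aggregating. Its signal was 4559, 3425 and 2968 without drug, in the order 0, 12 and 24 h of TGF-β used throughout, and 1169, 1666 and 1122 with it. The groups did not overlap, and the effect was -1.47 ± 0.16, or 2.77-fold lower (limma adjusted p = 0.00255, lower in 3 of 3 pairs). Creld2, an ER-resident protein with disulfide isomerase activity, read 3737, 3777 and 2431 without drug and 1348, 1479 and 1452 with it. Its highest drug array lay below its lowest array without drug, with an effect of -1.19 ± 0.14 (adjusted p = 0.00383, 3 of 3 pairs).

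Manf, a small secreted factor that binds Hspa5, read 16440.0, 16413 and 12404 without drug and 7171, 8336 and 7370 with it. It fell by 0.98 ± 0.10 on the log2 scale, 1.97-fold, in 3 of 3 pairs (adjusted p = 0.00162). Hsp90b1 (GRP94), the ER form of Hsp90, read 10543, 11525 and 9346 without drug and 4697, 7518 and 6366 with it. The 2 sets of arrays were separate, and the effect was -0.78 ± 0.12 (adjusted p = 0.011, 3 of 3 pairs). A second probe set of Hsp90b1 gave -1.53.

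Hspa5, the central ER Hsp70, also fell. It read 24805, 27109.6 and 23266 without drug, against 17083, 16636 and 20664 with SP600125. All drug arrays were lower than all others, yet the 24 h pair was close, and the effect was -0.47 ± 0.11, 1.39-fold (adjusted p = 0.0389, 3 of 3 pairs). Its other probe sets gave -0.78 to -0.10. Dnajb11, an Hsp40 that brings clients to Hspa5, fell by 0.75 ± 0.15, and Dnajc3, an Hsp40 that also inhibits eIF2α kinases, fell by 0.53 ± 0.11. Hyou1, an Hsp70-like exchange factor for Hspa5, had an effect of -0.42 ± 0.11 that was not called (adjusted p = 0.0533), although its drug arrays were all below the rest.

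Hspa13, an atypical microsomal Hsp70, and Dnajb9 (ERdj4), an Hsp40 linked to degradation, did not pass the test with the drug. Their effects were -0.28 and 0.20. Dnajb9 was thus the 1 chaperone of the 10 with a positive value, higher in 3 of 3 pairs (adjusted p = 0.219).

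**Figure D3:**
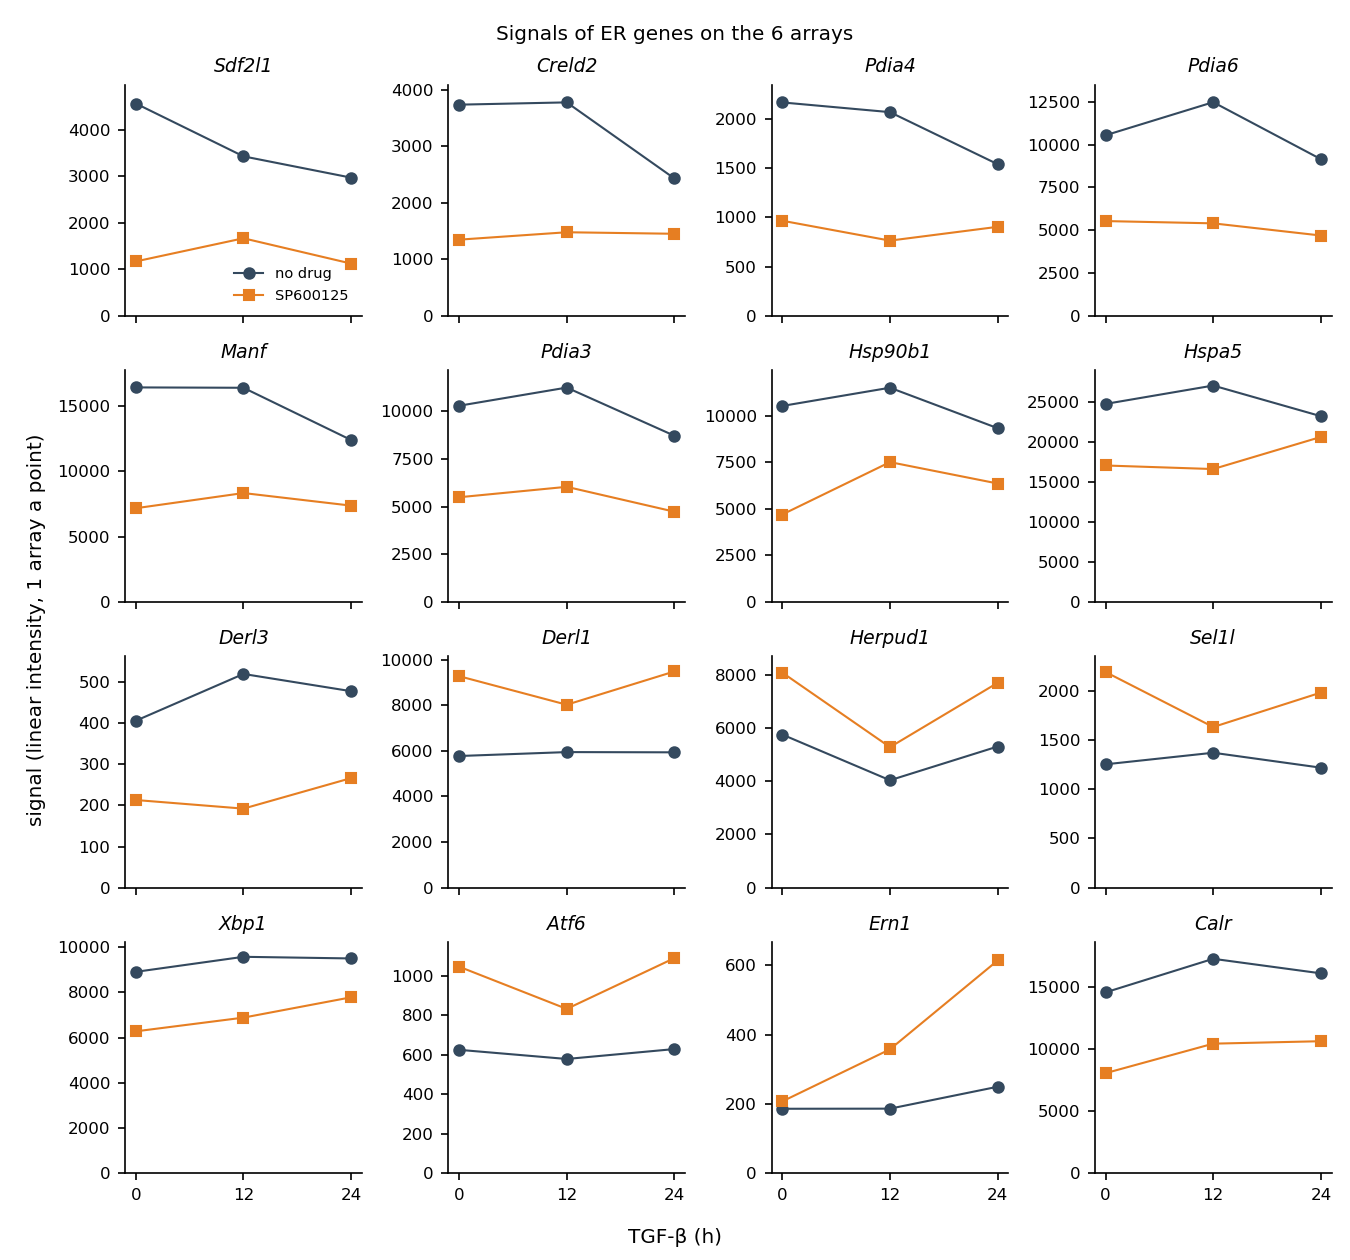
Signal of selected ER genes on each of the 6 arrays, on linear axes that start at 0, against hours of TGF-β, without drug (circles) and with SP600125 (squares). The drug points of Sdf2l1, Creld2 and Manf lie below their partners at all 3 times, and those of Derl1 and Atf6 lie above.

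Of the lectin chaperones and disulfide enzymes, 5 of 8 fell with SP600125 and 0 rose. The protein disulfide isomerases made up 4 of the 5. Pdia6 (P5) read 10539.5, 12469.6 and 9144 without drug and 5531, 5399 and 4688 with it. It was lower by 1.03 ± 0.09 log2 units, 2.05-fold, in 3 of 3 pairs (adjusted p = 0.000954). Pdia4 (ERp72) read 2169, 2070 and 1541 without drug and 966.6, 764.5 and 904.8 with it. The largest drug value of Pdia4 was well under its smallest value without drug (effect -1.12 ± 0.14, adjusted p = 0.00485, 3 of 3 pairs).

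Pdia3 (ERp57), which works with calnexin and calreticulin on glycoproteins, read 10297, 11252 and 8722 without drug and 5489, 6037 and 4730.3 with it. Its effect was -0.90 ± 0.07, with the smallest adjusted p among the ER genes (0.000952, lower in 3 of 3 pairs). Calr, the soluble lectin chaperone of the pair, read 14593, 17299 and 16127 without drug and 8080.2, 10459 and 10656 with it, a fall of 1.65-fold (effect -0.73 ± 0.08, adjusted p = 0.00285, 3 of 3 pairs). Canx, its membrane-bound relative, had -0.21 ± 0.08 and was not called (adjusted p = 0.162), though its drug arrays were also all below the others. Its other probe sets gave -0.57 and -0.45. P4hb (PDI itself) fell by 0.34 ± 0.08 (adjusted p = 0.0464).

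The oxidases that recharge the isomerases did not pass the test. Ero1a had an effect of 0.19 and Ero1b one of -0.32, lower in 3 of 3 pairs (adjusted p = 0.106).

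Effects on the translocation genes lay between -0.55 and 0.14 on their brightest probe sets. Their other probe sets above the floor on all arrays gave -0.74 (Rpn1) to 0.4 (Sec63). Within the Sec61 channel and its partners, 0 of 4 measured genes were called by limma for SP600125. Sec61b, a subunit of the channel, read 12798, 13829.5 and 14580 without drug and 12639, 13909 and 12742 with it, so the groups overlapped (effect -0.07, adjusted p = 0.662). The values were -0.22 for Sec61a1, which forms the pore, 0.14 for Sec62 and -0.32 for Sec63, which helps Hspa5 act at the channel.

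In the TRAP complex, which assists the channel, Ssr1 fell by 0.36 ± 0.08 (adjusted p = 0.0304) and the other 3 subunits were not called. Ssr4 read 8915, 8903 and 10801 without drug and 8448, 9014 and 9500 with it, and those sets overlapped. Of signal peptidase, Spcs3 fell by 0.55 ± 0.08, 1.46-fold (adjusted p = 0.0101), the strongest call in translocation. Spcs1 of the same complex read 9384, 12135 and 10937 without drug and 10301, 10672 and 11272 with it, with no separation (effect -0.00, adjusted p = 0.992). Spcs2 had -0.32 (adjusted p = 0.0542), and Sec11c, a catalytic subunit, had -0.12.

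The 5 listed genes of the oligosaccharyltransferase had effects between -0.40 and -0.29 on their brightest probe sets, and all 5 were lower in 3 of 3 pairs. Ostc (-0.40 ± 0.08, adjusted p = 0.0198), Rpn2 (-0.39 ± 0.09, adjusted p = 0.0436) and Stt3a, a catalytic subunit (-0.37 ± 0.08, adjusted p = 0.0297), fell. Rpn1 read 17572, 16818 and 14631 without drug and 15031, 11990.1 and 12443 with it. Those groups overlapped by 1 array, and neither Rpn1 (-0.32, adjusted p = 0.0642) nor Ddost (-0.29, adjusted p = 0.0901) was called. Other probe sets of Rpn1 gave -0.74 to -0.28. Rpn2 was also the 1 gene among the 20 that fell whose arrays with and without drug overlapped.

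Degradation genes split. The derlins, membrane proteins of the exit route, went opposite ways: Derl1 rose, Derl3 fell, and Derl2 was not called (-0.24, adjusted p = 0.201). Derl1 read 5769.7, 5942 and 5932 without drug, a narrow range, and 9272, 8019 and 9479 with it. This separation gave 0.60 ± 0.08, 1.51-fold (adjusted p = 0.00764, higher in 3 of 3 pairs). Derl3 read 406.4, 520.4 and 478.4 without drug and 213.3, 192.3 and 266.7 with it. Its sets did not meet either, and its effect was -1.07 ± 0.20, 2.10-fold lower (adjusted p = 0.0198, 3 of 3 pairs).

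Sel1l, the adaptor of the Hrd1 ligase, read 1254, 1372 and 1219.5 without drug and 2193, 1633 and 1983 with it, with no overlap, and rose by 0.59 ± 0.13 (adjusted p = 0.0336, 3 of 3 pairs). Other probe sets of Sel1l gave -0.33 to 0.47, so its direction rests on the probe set used. Herpud1, a stress-induced membrane protein of the same complex, read 5753, 4034 and 5302 without drug and 8082, 5279.5 and 7697 with it. Each pair was higher with drug but the sets overlapped, because both 12 h arrays were low (effect 0.47 ± 0.08, adjusted p = 0.0132). Edem1, which marks misfolded glycoproteins for disposal, read 2598, 2583 and 2208 without drug and 1322, 1630.2 and 1412 with it, and fell by 0.76 ± 0.11 (adjusted p = 0.0073, 3 of 3 pairs). Syvn1, the ligase itself, had -0.03 (adjusted p = 0.872). Sel1l and Edem1 signals are given because of their calls, and were chosen after the values were seen.

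The regulators also parted. Xbp1, the transcription factor downstream of Ern1, read 8901, 9565 and 9493 without drug and 6274, 6879 and 7777 with it. It fell by 0.42 ± 0.08, 1.34-fold, with no overlap (adjusted p = 0.0205, 3 of 3 pairs), and its splicing was not analysed here. Atf6 read 625.0, 578.7 and 628.8 without drug and 1046, 831.9 and 1089 with it. That rise was 0.69 ± 0.13, 1.61-fold, again with separate groups (adjusted p = 0.0222, 3 of 3 pairs). Ern1, the sensor whose RNase splices Xbp1, read 186.2, 186.5 and 249.6 without drug and 207.4, 357.4 and 613.2 with it. Its drug arrays reached above the rest in the TGF-β states, and its effect of 0.80 ± 0.25 was not called (adjusted p = 0.1).

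Of the 10 genes with an ERSE shown above, 7 fell with SP600125 and 0 rose, against 3.69% and 3.99% of all genes. The median of these 10 was -0.63. The 3 not called were Canx, Ero1b and Syvn1. Of the 25 members with a listed promoter and no ERSE, 10 fell and 2 rose, with a median of -0.32. Role and element overlap, as 8 of 15 folding genes with a listed promoter had an ERSE and 0 of 12 translocation genes. The other folding genes with a listed promoter had -1.47 (Sdf2l1), -1.12 (Pdia4), -0.90 (Pdia3), -0.75 (Dnajb11), -0.34 (P4hb), 0.19 (Ero1a) and 0.20 (Dnajb9). Whether the element adds to the role was not tested. Outside the list 4 tested genes had an ERSE, of which 0 were called by limma, with a median of 0.14. Of the 2 genes with an ERSE-II, Dnajb11 fell and Herpud1 rose. Herpud1 was also the member with an ATF4 element. Of 250 other tested genes with that element 26 rose and 4 fell, with a median of 0.06. Of all genes tested 3.99% rose and 3.69% fell, and a part of the element in the rise of Herpud1 was not tested.

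Where a gene that fell had further probe sets above the floor on all arrays, as 10 of the 20 did, all 20 of those probe sets had a negative effect. For the 4 that rose, 8 of 10 further probe sets were positive, the exceptions being in Sel1l.

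Pair by pair, without a test, the folding genes had a median log2 difference of -0.75 without TGF-β, -0.69 in the 12 h pair and -0.28 in the 24 h pair. The drug had been present for 24, 12 and 24 h in these pairs. Translocation medians were -0.27, -0.20 and -0.23, and degradation medians 0.04, -0.21 and 0.07, while all genes had 0.02, 0.01 and 0.04. Sdf2l1, Creld2, Manf, Pdia4, Hsp90b1 and Dnajb11 were at least 2-fold lower at 0 h, against 1.29% of all genes, and 0 members were as much higher, against 3.15%. At 12 h Creld2, Pdia4, Derl3, Pdia6 and Sdf2l1 were 2-fold lower, against 1.13%, and again 0 higher, against 1.8%. At 24 h Sdf2l1 alone was 2-fold lower, against 1.99%, and Ern1 alone 2-fold higher, against 3.16%. The 24 h pair holds the array with the high 18S signal, and its smaller folding median was not tested against the others.

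**Figure D4:**
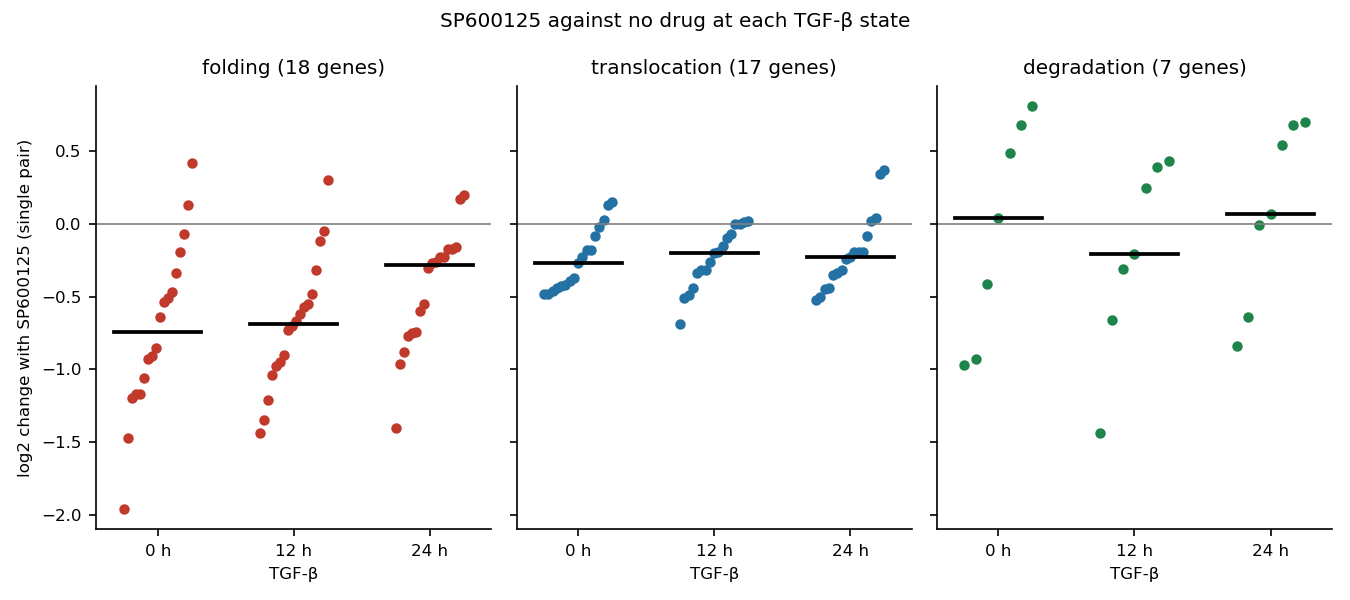
Log2 difference with SP600125 of each ER gene in the 3 single pairs, 1 for each TGF-β state, by role, with a bar at the median of each role. The folding medians are -0.75, -0.69 and -0.28, and those of degradation lie near 0.

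TGF-β itself moved few of these genes. At 12 h 2 of 45 rose, against 2.6% of all genes, and 1 fell, against 2.37%. At 24 h 3 rose, against 9.07%, and 2 fell, against 7.5%, so the shares were near or under those of all genes. Median effects were 0.10 at 12 h and 0.04 at 24 h, beside 0.02 and 0.07 over all genes, and the 0 h arrays are shared by both times. With each array divided by its median, the median over all genes at 24 h moved from 0.07 to -0.04, the positive members went from 26 to 16 of 45, and 2 rose and 8 fell. At 12 h that scaling moved the positive members from 34 to 26.

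The 12 h calls were Hspa13, Syvn1 and Herpud1. Hspa13 read 1599 untreated, 2823 at 12 h and 2084 at 24 h without drug, and 1526, 2029.5 and 1695 with it. Both 12 h arrays were the highest of their arm, with an effect of 0.62 ± 0.13 (limma adjusted p = 0.0425, higher in 2 of 2 pairs). Syvn1 read 2124, 3333 and 2739 without drug and 2188, 2872 and 2881 with it. All TGF-β arrays of Syvn1 exceeded the unstimulated ones, with 0.52 ± 0.12 at 12 h (adjusted p = 0.0478, 2 of 2 pairs) and 0.38 at 24 h (adjusted p = 0.0632). Herpud1 was lower at 12 h in both arms, by 0.51 without and 0.61 with drug, for an effect of -0.56 ± 0.10 (adjusted p = 0.0199), and at 24 h its effect was -0.09. The calls of Hspa13 and Syvn1 were lost with median scaling. Other probe sets of Hspa13 were all higher at 12 h, by 0.22 to 1.12 without and 0.60 to 0.94 with drug. The second probe set of Syvn1 read 1697 untreated and 1737 at 12 h without drug, and 1507 and 1658.5 with it. That of Herpud1 did not fall without drug (3459 untreated and 3459 at 12 h), and read 5338 and 3912 with it.

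At 24 h Ero1b, Dnajb9 and Sec63 rose and Ero1a and Ssr2 fell. Ero1b read 1874, 2726 and 2966 without drug and 1642, 1860.1 and 2532 with it. Both TGF-β arrays of each arm were above its unstimulated array, with 0.64 ± 0.13 at 24 h (adjusted p = 0.0149, 2 of 2 pairs). Its paralogue Ero1a read 2818, 2446 and 2204 without drug and 3767, 2366 and 2529 with it. In each arm the unstimulated array was the highest, and the effects were -0.46 ± 0.13 at 24 h (adjusted p = 0.0491, 2 of 2 pairs) and -0.44 at 12 h (adjusted p = 0.104).

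Dnajb9 read 2169, 2168 and 3158 without drug and 2371, 2668 and 3549 with it. The 24 h arrays stood above all others, with 0.56 ± 0.11 (adjusted p = 0.0131, 2 of 2 pairs), against 0.08 at 12 h. Sec63 read 1212, 1407 and 1547 without drug and 897.2, 1038 and 1459 with it, highest at 24 h in each arm (0.53 ± 0.15, adjusted p = 0.0465). At 24 h its other probe sets gave -0.33 to 0.37 without drug and -0.8 to 0.7 with it. The direction of Sec63 thus rests on the probe set used. Ssr2, of the TRAP complex, read 6082, 5062 and 4599 without drug and 4696, 4726 and 3613 with it, lowest at 24 h in each arm (-0.39 ± 0.11, adjusted p = 0.0448). The falls of Ero1a and Ssr2 were not called with quantile normalization or with a floor at the 25th percentile of signals, and Sec63 not with median scaling or quantile normalization. With the mean of all probe sets, Dnajb9 was the 1 gene that rose. Left out in turn, every 1 of the 6 arrays ended all TGF-β calls of these genes at both times.

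**Figure D5:**
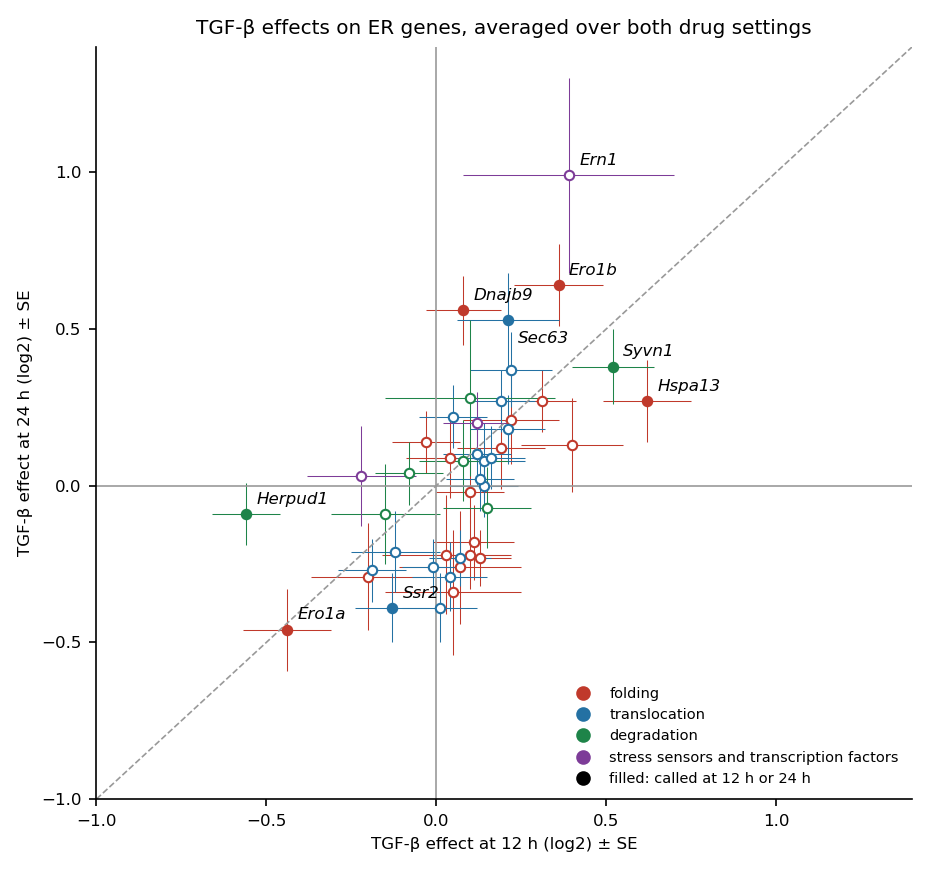
TGF-β effect at 24 h against that at 12 h for the 45 ER genes (log2, averaged over both drug settings, with shared 0 h arrays), coloured by role. Filled points were called at 12 h or 24 h, bars are standard errors, the dashed line marks equal effects, and Ern1 is named without a call.

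Between 12 h and 24 h, limma called 0 members in either direction, while 0.017% of all genes rose and 0% fell. At an unadjusted p under 0.05 there were 11 of 45 members, 2 higher and 9 lower, against 15.3% of all genes in both directions. Dnajb9 had 0.48 (adjusted p = 0.104) and Herpud1 0.47 (adjusted p = 0.0933). In the TGF-β by SP600125 interaction, which asks whether the cytokine's change differed with the drug, limma called 0 members and 0% of all genes, and 0 members had an unadjusted p under 0.05. Over all genes 315 had, or 2.69%. In the single TGF-β pairs without drug, 0 members were 2-fold higher or lower at 12 h (3.26% and 1.44% of all genes) or 24 h (5.51% and 1.91%). With drug there were again 0 at 12 h (2.47% and 1.3%), and at 24 h 1 was higher (4.59%) and 0 lower (2.02%). That 1 was Ern1, with a log2 difference of 1.56. Its difference without drug was 0.42, and the interaction value of 0.96 was not called (adjusted p = 0.999).

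Further genes of the same pathways were read from lists set by function, chosen with earlier results of these data known. With SP600125, 3.69% of all genes tested fell and 3.99% rose. Of 25 further folding genes 5 fell and 1 rose (median -0.14). Erp44, which returns escaped proteins to the ER, fell by 0.66 ± 0.08 (adjusted p = 0.00357), Fkbp2, a prolyl isomerase, fell by 0.55 ± 0.10 (adjusted p = 0.016), and Cnpy2 rose by 0.62 ± 0.09 (adjusted p = 0.00708). Of 20 further targeting and translocation genes 3 rose and 3 fell (median -0.03). Among them Dad1 (-0.47 ± 0.10, adjusted p = 0.0333) and Magt1 (-0.47 ± 0.09, adjusted p = 0.0226), both of the oligosaccharyltransferase, fell. Krtcap2, a further subunit, rose by 0.79 ± 0.08 (adjusted p = 0.0016), and Tram2 rose by 1.81 ± 0.39 (adjusted p = 0.0304). Of 18 further degradation genes 1 fell, Selenok (-0.40 ± 0.10, adjusted p = 0.0484), and 0 rose (median 0.09).

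In the PERK and Atf4 branch, of 10 genes 8 rose with SP600125 and 0 fell, against 3.99% and 3.69% of all genes (median 1.87). Eif2ak3, which is PERK itself (0.17, adjusted p = 0.426), and Atf3 (0.82, adjusted p = 0.108) were not called. Trib3, a pseudokinase induced by Atf4, rose by 3.58 ± 0.18 (adjusted p = 0.000138) and Cebpb, a transcription factor, by 2.87 ± 0.13 (adjusted p = 0.000119). Of 5 other sensors and factors 0 were called (median 0.22).

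Among 18 genes of COPII vesicles, which carry cargo out of the ER, 3 fell and 0 rose (median -0.08). They included Sec24d, a cargo-binding coat subunit (-0.94 ± 0.15, adjusted p = 0.0107), and Lman1, a cargo receptor (-0.42 ± 0.08, adjusted p = 0.0204). Of 5 plasma cell genes 1 fell, Jchain, the joining chain of secreted antibody (-0.44 ± 0.09, adjusted p = 0.022). The median of these 5 was -0.47, with 4 negative and 1 positive. Of chaperones of other compartments, 16 cytosolic ones were tested and 1 fell, Dnaja1 (-0.44 ± 0.08, adjusted p = 0.0168), where 3.69% of all genes fell. Of 7 mitochondrial ones 1 rose, Lonp1 (0.74 ± 0.14, adjusted p = 0.0198), where 3.99% of all genes rose. The medians were -0.15 for the cytosolic and 0.07 for the mitochondrial chaperones, beside -0.63 for the listed ER folding genes and -0.14 for the further ones, and these were not tested against each other.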

How the data were processed

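The authors deposited 1 linear intensity per probe set and array, a signal from GCOS 1.2 (per the submitters' processing notes). No label states the software's settings. The 2% trimmed mean of the deposited intensity was 500.0 on each array. Of 45101 probe sets, 34958 had 1 symbol in the platform annotation, 932 had several and 9211 were not listed. The brightest probe set stood for a gene, signals under 74.2 were set to that floor, and log2 was taken. The 11731 genes whose signal passed the floor on 2 or more arrays were fitted with limma 3.58.1 in R 4.3.3, with TGF-β state and SP600125 as additive terms, 2 residual degrees of freedom, an intensity trend and Benjamini-Hochberg adjustment. The interaction model took 12 h and 24 h as repeats. On simulated data with independent noise and additive changes, as the model assumes, the fit recovered the mean size of known changes. Such data hold no fault of a single array, so they cannot show how the fit handles one. Alternatives were the scaling, probe set rule, floor, filter, variance prior and each array left out.

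The members and lists were chosen with earlier results of these data known. Signals on each array are given for up to 8 called genes per effect with the largest effect, for Hspa5, Xbp1, Atf6 and Ern1, and for the brightest gene of each role. Of other lists, up to 2 called genes a direction are named. The number of arrays limits the precision.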

Additional observations from a re-analysis of the deposited data

Results flagged for a closer look

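The 18S ribosomal RNA control probe set, which is outside the genes compared, read 5878 on the 24 h array with both agents and 506.5 to 881.5 on the other 5 arrays, the untreated one being the lowest. The same array had the highest actin 3′ to 5′ ratio (1.89) and the highest Gapdh ratio (0.98, against 0.78 to 0.88 elsewhere).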

How the results depend on the processing

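With SP600125, 4 members rose and 20 fell. Median scaling, quantile normalization, a floor at the 25th percentile and log2(signal + 50) gave 4 to 5 rises and 18 to 23 falls. The mean of all probe sets gave 0 and 9, no filter 0 and 0, and no intensity trend 0 and 2. Leaving out 1 array gave 0 rises and 0 to 4 falls, with 4 to 5 higher and 24 to 27 lower at an unadjusted p under 0.05, which 16.1% to 17.9% of all genes passed. For TGF-β at 12 h (2 rose, 1 fell), median scaling gave 0 rises, and the mean of all probe sets, no filter and no trend gave 0 and 0. At 24 h (3 rose, 2 fell), median scaling gave 8 falls, quantile normalization and the 25th percentile floor 0 falls, the mean of all probe sets 1 rise, and no filter and no trend 0 and 0. Leaving out 1 array gave 0 calls at both times and between them. From 12 h to 24 h, log2(signal + 50) called 1 rise, Herpud1, in place of 0. Where a count moved, the cause was not tested, except that fits without 1 array have 1 residual degree of freedom.

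Of effects not called, SP600125 on Ssr4 turned to 0.06 with the mean of all probe sets. That on Spcs1 turned to 0.05 with quantile normalization and ranged from -0.07 to 0.09 with 1 array left out, and that on Syvn1 from -0.09 to 0.06. The pairs of the SP600125 effect are arrays of the same TGF-β state, which the additive model holds as a term. No further pairing was possible, because the labels carry no replicate numbers to block on and each condition has 1 array.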
